A study of Mus musculus with 4 samples.

Results

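The genes described here are 50 named genes of the cell division cycle, 26 that act in G1 and DNA replication and 24 that act in G2 and mitosis. They were taken from the array by symbol: 49 had a row of their own among 19752 genes with one, and expression of Ccnb1, the cyclin B1 gene, was not analysed here. Pcna and Slbp had 2 rows each and were represented by the brighter row. On 1 or more arrays each of the 49 exceeded the array's median row, so all entered the test, which covered 10699 genes. They were bright, so the filter on dim genes removed none of them.

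All samples were splenic CD4+ T cells of the inbred mouse strain C57BL/6 (males aged 6 weeks). Negative selection had enriched them, and bead stimulation through CD3 and CD28 for 48 h preceded every group, baseline included, going by the series' design text and the sample titles. Baseline cells received no cytokine (2 arrays, baseline 1 and baseline 2). The others were then cultured with interferon alpha (IFNa), a type I interferon, at 100 U/ml for 2 h (1 array) or 8 h (1 array). Nothing in the labels tells whether both baseline samples are of 1 mouse or culture, so p-values measure only how far these 2 arrays lie apart, a spread that may be technical. IFNa and the added hours of culture cannot be told apart, since untreated cells kept as long were not analysed here. For the IFNa samples the labels' preparation field names Janus kinase inhibitors with a plus or minus sign, while the remaining labels name IFNa alone.

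In a dividing cell, D-type cyclins with their kinases and E-type cyclins free the E2F transcription factors, which switch on the genes for loading and firing replication origins and for making nucleotides. Later, cyclins A and B with Cdk1 and the mitotic kinases drive chromosome condensation, spindle assembly and separation, until the anaphase-promoting complex destroys the mitotic regulators. Stimulation through the T cell receptor and CD28 brings resting T cells into this cycle, and type I interferons are known to slow the growth of many cell types. In a bulk sample, fewer cells in a phase and less RNA per cell cannot be told apart.

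The arrays carried the signal their labels name. On the log2 intensity scale Irf7, an interferon-induced transcription factor, read 7.28 and 7.80 on the baseline arrays, then 10.69 (2 h) and 10.77 (8 h). Member values are given on the same scale and, where 4 follow each other, in the order baseline 1, baseline 2, 2 h and 8 h. All 8 T cell markers with a row were above the median of all rows. Other markers were counted where they exceeded that median on 1 or more arrays. They were 3 of 3 B cell, 2 of 2 CD8 T cell and 1 of 3 natural killer genes. Also counted were 1 of 7 myeloid and dendritic, 1 of 3 neutrophil and 1 of 2 erythroid genes. The summed intensity of the B cell markers was 1913 and 1933 at baseline, then 1875 (2 h) and 2469 (8 h), and that of the myeloid and dendritic markers was 1014, 810, 640 and 904 in the same order. The CD8 T cell sum was 1112, 1001, 921 and 1191 and the erythroid sum 274, 240, 218 and 377. The B cell, CD8 T cell and erythroid sums were lowest at 2 h and highest at 8 h, as was the median intensity of all rows (195, 183, 176 and 199). The natural killer sum was 296, 236, 220 and 271 and the neutrophil sum 306, 312, 309 and 340, without that order. The part of such cells in the results was not tested. The arrays did not share 1 distribution: their 75th percentiles of intensity were 669 and 730 at baseline, then 769 (2 h) and 574 (8 h). Against baseline, the median tested gene differed by 0.06 (2 h) and −0.16 (8 h) in log2. Quantile normalization made these −0.01 and −0.00, and centring every array on its own median made them 0.15 and −0.24. Member values are therefore set beside those of all tested genes. A 95% interval of a member's difference from baseline reached a median of 0.47 to either side on the log2 scale.

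The replication genes and the mitosis genes carry different letters at their gene starts. RefSeq windows of 250 bases before to 50 after the start (build GRCm38.p6) were listed for 41 of the 50 genes, Ccnb1 among them. The E2F core, TTCCCGC or TTGGCGC on either strand, stood in the windows of 10 of 21 replication genes (47.6%) and 3 of 20 mitosis genes (15%), against 7.79% of 27025 genes in the table. The cell cycle genes homology region (CHR) element TTTGAA, through which G2 and M genes are known to be held silent in resting cells, stood in 4 of 21 replication genes (19.0%) and 15 of 20 mitosis genes (75%), against 20.2% of all genes. The CCAAT box, also searched on both strands, stood in 66.7% and 90%, against 41.1% of all genes. E2F core matches overlapped a CCAAT box in 3 of 46 member windows and the CHR element did so in 1 window. A match is a description of letters and not a measured site. The windows of 3 replication genes that stood lower on the 8 h array than on the 2 h array are printed first, with E2F core matches in capitals, and then those of 3 mitosis genes that stood under both baseline arrays at 2 h, with CHR and CCAAT matches in capitals. The windows were chosen after the values were seen and are written 5′ to 3′ in the direction of the gene.
Mcm6 (chr1:128359656-128359955, minus strand): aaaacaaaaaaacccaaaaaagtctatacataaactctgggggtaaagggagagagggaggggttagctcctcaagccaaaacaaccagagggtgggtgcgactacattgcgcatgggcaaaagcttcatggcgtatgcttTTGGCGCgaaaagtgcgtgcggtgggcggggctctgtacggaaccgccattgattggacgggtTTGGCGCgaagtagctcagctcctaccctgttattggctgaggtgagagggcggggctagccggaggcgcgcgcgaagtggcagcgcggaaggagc
Pola1 (chrX:93632106-93632405, minus strand): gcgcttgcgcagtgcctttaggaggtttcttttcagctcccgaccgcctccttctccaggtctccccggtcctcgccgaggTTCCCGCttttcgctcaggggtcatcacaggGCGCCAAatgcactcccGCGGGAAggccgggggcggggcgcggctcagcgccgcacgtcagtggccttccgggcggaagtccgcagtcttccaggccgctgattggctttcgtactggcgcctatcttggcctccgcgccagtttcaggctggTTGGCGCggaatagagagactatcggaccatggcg
Prim1 (chr10:128014965-128015264, plus strand): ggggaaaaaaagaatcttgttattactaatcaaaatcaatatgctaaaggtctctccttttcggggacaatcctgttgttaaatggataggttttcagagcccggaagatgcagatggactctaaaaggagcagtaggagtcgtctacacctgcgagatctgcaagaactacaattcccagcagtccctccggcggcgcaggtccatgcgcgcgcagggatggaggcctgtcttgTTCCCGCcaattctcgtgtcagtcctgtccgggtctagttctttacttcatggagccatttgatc
Plk1 (chr7:122159185-122159484, plus strand): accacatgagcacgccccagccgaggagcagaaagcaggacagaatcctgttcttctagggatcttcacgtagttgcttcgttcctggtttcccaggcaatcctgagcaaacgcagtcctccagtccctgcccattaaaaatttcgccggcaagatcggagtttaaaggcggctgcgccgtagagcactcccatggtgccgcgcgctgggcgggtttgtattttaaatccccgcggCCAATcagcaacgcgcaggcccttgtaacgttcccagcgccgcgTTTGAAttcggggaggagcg
Kif23 (chr9:61946750-61947049, minus strand): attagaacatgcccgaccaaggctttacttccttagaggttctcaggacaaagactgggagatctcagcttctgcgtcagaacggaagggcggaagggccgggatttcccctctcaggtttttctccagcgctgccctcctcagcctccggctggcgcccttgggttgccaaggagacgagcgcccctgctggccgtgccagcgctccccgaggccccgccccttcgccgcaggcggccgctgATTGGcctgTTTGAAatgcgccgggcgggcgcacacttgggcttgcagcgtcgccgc
Ccnb2 (chr9:70421505-70421804, minus strand): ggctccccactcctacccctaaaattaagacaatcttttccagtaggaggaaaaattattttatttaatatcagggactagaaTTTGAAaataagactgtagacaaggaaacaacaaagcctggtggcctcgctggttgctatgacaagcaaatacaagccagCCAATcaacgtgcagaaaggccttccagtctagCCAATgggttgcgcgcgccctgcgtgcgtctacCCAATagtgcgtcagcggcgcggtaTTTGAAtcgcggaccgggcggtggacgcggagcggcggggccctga

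In Mcm6 the E2F core began 109 and 46 bases before the gene start, and in Prim1 15 bases before it, where it ran into a CCAAT box. Pola1 held 4 E2F cores. In Plk1 and Kif23 a CCAAT box lay 14 and 7 bases before the start and the CHR element 31 and 3 bases after it, and Ccnb2 held 3 CCAAT boxes ahead of a CHR element. No E2F core was found in the windows of Fen1, and no window was listed for Gins1. These are the 2 members called lower at 8 h than at 2 h.

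The baseline arrays already differed in the replication genes. Baseline 2 was the higher array in 22 of 26 replication genes, with a median difference of 0.16, and in 12 of 23 mitosis genes, with a median of 0.03. Among all tested genes it was the higher array in 67.5%, with a median of 0.10. The widest gap was in Ccnd3, a D-type cyclin, at 10.45 and 11.45, followed by Mcm5 at 10.99 and 11.70 and Mcm2 at 10.92 and 11.55, both subunits of the replicative helicase. Pola1, the catalytic subunit of DNA polymerase alpha, read 10.25 on both arrays. Of the mitosis genes the widest gap was in Cdc20, an activator of the anaphase-promoting complex, at 10.06 and 10.62. The proliferation antigen gene Mki67 read 12.79 and 12.76, and Top2a, which untangles DNA, 12.11 and 12.21.

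The first comparison asks what the cycle genes did 2 h after IFNa. Replication genes stood higher and mitosis genes lower on the 2 h array, by amounts too small for single genes to pass the test. The median difference was 0.31 over 26 replication genes (0.17 to 0.41 over the scalings tried) and −0.23 over 23 mitosis genes (−0.35 to −0.14), beside 0.06 for all tested genes. Of the replication genes 24 of 26 stood above the baseline mean, where 57.0% of all tested genes did so, and of the mitosis genes 3 of 23. Quantile normalization made these counts 17 and 1, and centring made them 25 and 6. Against baseline 1 alone they were 24 and 5, and against baseline 2 alone 21 and 2. Limma called 0 of 49 higher or lower (adjusted p under 0.05), where 1.09% of all tested genes were called higher and 0.00935% lower. At an unadjusted p under 0.05 Fen1 was higher and Plk1 lower, 1 of 49 each way beside 9.36% and 2.78% of all genes. The smallest difference called at 2 h was 1.10 (2.14-fold), and member differences ran from −0.48 to 0.64.

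Of the replication genes 21 of 26 lay above both baseline arrays at 2 h, where 44.5% of all tested genes did so. Of the mitosis genes 17 of 23 lay below both, where 33.0% of all tested genes did so. The median of the replication genes was 0.37 against baseline 1 and 0.19 against baseline 2, and all tested genes stood at 0.12 and −0.00. The median of the mitosis genes was −0.21 and −0.22. The replication genes thus stood closer to baseline 2, and the mitosis genes lay about equally far under each baseline array.

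**Figure D1:**
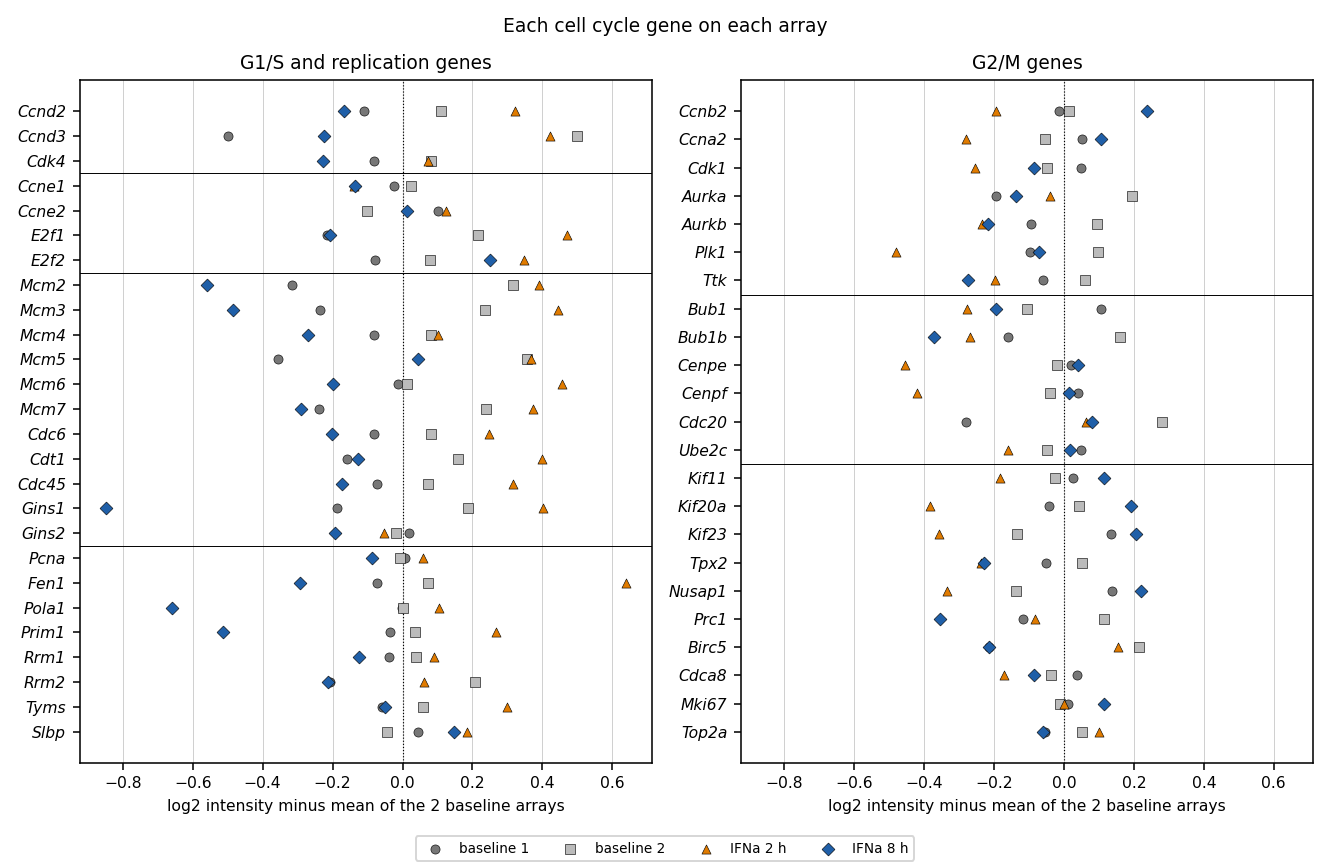
Log2 intensity of each gene on each of the 4 arrays, minus the mean of its 2 baseline arrays (horizontal axis), for 26 replication genes on the left and 23 mitosis genes on the right, with horizontal lines between functional classes. On the left most 2 h points lie to the right of both baseline points (21 of 26 genes), and on the right most lie to the left of both (17 of 23), with no gene called against baseline.

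Among the G1 genes the cyclin Ccnd2 read 12.52 and 12.74 at baseline, then 12.95 (2 h) and 12.46 (8 h). Its partner Cdk4, the kinase that phosphorylates the retinoblastoma protein, read 13.01, 13.17, 13.16 and 12.86. Ccnd2 was thus highest on the 2 h array, while Cdk4 at 2 h lay between the baseline arrays. Ccnd3 at 11.37 (2 h) and 10.72 (8 h) stayed within its wide baseline range. The E-type cyclins that act with Cdk2 differed little: Ccne1 stood at −0.14 (SE 0.20) and Ccne2 at 0.12 (SE 0.21) at 2 h. E2f1, a transcription factor that switches on replication genes, read 9.80, 10.23, 10.48 and 9.80, so that it was highest at 2 h and equal to baseline 1 at 8 h. E2f2, a second activator of this family, read 9.96 and 10.12 at baseline, then 10.39 (2 h) and 10.29 (8 h), above both baseline arrays at both times.

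The helicase genes were the class with the highest 2 h median (0.37 over 11 genes of licensing and helicase). Of these, 10 lay above both baseline arrays. The baseline arrays themselves differed in this class: baseline 2 was the higher array in 10 of 11 genes, with a median difference of 0.32. Mcm6 read 11.33 and 11.35 at baseline, then 11.80 (2 h) and 11.14 (8 h). Mcm3 read 10.54, 11.01, 11.22 and 10.29, and Mcm7 read 11.64, 12.12, 12.26 and 11.59. All 3, subunits of the ring that unwinds DNA at the fork, had their highest value at 2 h and their lowest at 8 h, Mcm6 with the narrowest baseline pair. Mcm2 (10.92, 11.55, 11.62 and 10.67) had the same order, with the 2 h array close to baseline 2. Mcm4 stood at 0.10 (SE 0.21) and Mcm5 at 0.37 (SE 0.29) at 2 h.

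The loading factors Cdc6 and Cdt1, which place the helicase on origins, stood at 0.25 (SE 0.21) and 0.40 (SE 0.22) at 2 h. Cdc45, which with the GINS complex makes the helicase active, read 9.83 and 9.98 at baseline, then 10.22 (2 h) and 9.73 (8 h). The GINS subunit genes differed from each other. Gins1 read 9.42, 9.79, 10.01 and 8.76, the lowest 8 h value against baseline of any member. Gins2 read 10.14, 10.10, 10.07 and 9.93, a much narrower range than that of Gins1.

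At the fork, Fen1, the nuclease that trims Okazaki fragments, read 8.53 and 8.68 at baseline, then 9.25 (2 h) and 8.31 (8 h). Its 2 h difference of 0.64 (SE 0.21, adjusted p = 0.279, limma) was the largest of any member. Prim1, which makes the RNA primers, read 9.80, 9.87, 10.11 and 9.32. Both were highest at 2 h and lowest at 8 h. Pola1 stood near baseline at 2 h (10.35) and at 9.59 at 8 h, well under its matching baseline values. The sliding clamp Pcna moved little, with 13.42 and 13.40 at baseline, then 13.47 (2 h) and 13.32 (8 h).

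Of the genes that supply building blocks, the ribonucleotide reductase genes Rrm1 and Rrm2 stood at 0.09 (SE 0.20) and 0.06 (SE 0.24) at 2 h, and the thymidylate synthase gene Tyms at 0.30 (SE 0.20). Slbp, which binds the stem-loop of histone messages, read 11.23 and 11.14 at baseline, then 11.37 (2 h) and 11.33 (8 h). Its dimmer row read 10.86, 10.75, 10.92 and 10.69, so the 2 rows lay on opposite sides of the baseline arrays at 8 h.

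Among the mitotic kinases and cyclins, 7 of 7 stood under the baseline mean at 2 h. Plk1, a kinase of mitotic entry and exit, read 12.10 and 12.30 at baseline, then 11.72 (2 h) and 12.13 (8 h) (2 h difference −0.48, SE 0.21, adjusted p = 0.410, limma). Ccnb2 read 12.86, 12.89, 12.68 and 13.11, and Ccna2 read 12.94, 12.83, 12.61 and 12.99. These cyclins were lowest at 2 h and highest at 8 h, whereas Plk1 at 8 h lay between the baseline arrays. Cdk1, their kinase, stood at −0.25 (SE 0.20) at 2 h, and Aurkb, the kinase of the chromosomal passenger complex, at −0.23 (SE 0.21). Aurka, the centrosomal Aurora kinase, stood at −0.04 (SE 0.23) and Ttk, a spindle checkpoint kinase, at −0.20 (SE 0.20).

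At the kinetochore, Cenpe, a motor that moves chromosomes to the metaphase plate, read 10.69 and 10.65 at baseline, then 10.22 (2 h) and 10.71 (8 h). Cenpf read 10.04, 9.96, 9.58 and 10.01. Both were low on the 2 h array alone. The checkpoint genes Bub1 and Bub1b were under both baseline arrays at both times, with differences of −0.28 (SE 0.21) and −0.27 (SE 0.22) at 2 h and −0.19 and −0.37 at 8 h. Ube2c, the ubiquitin-conjugating enzyme of the anaphase-promoting complex, stood at −0.16 (SE 0.20) at 2 h, and Cdc20 lay between its baseline arrays at both times (10.40 and 10.42).

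The spindle motors had a like order. Kif20a, a motor of the central spindle, read 10.94 and 11.03 at baseline, then 10.60 (2 h) and 11.17 (8 h). Kif23, which bundles midzone microtubules, read 11.41, 11.14, 10.92 and 11.48, and Nusap1, a microtubule-binding protein, read 12.30, 12.02, 11.83 and 12.38. All 3 were lowest at 2 h and highest at 8 h. Kif11, which pushes the spindle poles apart, stood at −0.18 (SE 0.20) at 2 h and 0.11 at 8 h. Tpx2, which activates Aurora A, was about as low at both times (−0.24 and −0.23, SE 0.20), and Prc1, a midzone crosslinker, was lower at 8 h (−0.35, SE 0.21) than at 2 h (−0.08).

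Not all genes on the mitosis list stood low at 2 h. Mki67 read 12.77 at 2 h and 12.89 at 8 h, and Top2a 12.26 and 12.10. Birc5, the survivin gene, stood at 0.16 (SE 0.24) at 2 h and Cdca8, its partner in the passenger complex, at −0.17 (SE 0.20). Top2a, Birc5 and Cdc20 stood above the baseline mean, and 20 of 23 under it.

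The second comparison asks where the genes stood after 8 h. Against baseline the replication genes were lower, by about as much as the array as a whole, and the mitosis genes were close to baseline. The median difference was −0.20 for replication genes (−0.28 to −0.09 over the scalings) and −0.06 for mitosis genes, which became 0.05 after quantile normalization, beside −0.16 for all tested genes. Limma called 0 of 49 in either direction, where 0.654% of all tested genes were called higher and 3.35% lower. At an unadjusted p under 0.05 Gins1, Pola1 and Prim1 were lower, 3 of 49 beside 19.0% of all genes, and 0 were higher beside 5.63%.

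Of the replication genes 18 of 26 lay below both baseline arrays at 8 h and 2 above both, where 55.9% and 24.4% of all tested genes did so. Of the mitosis genes 9 of 23 lay below both and 8 above both. The lowest members were Gins1 (−0.85, SE 0.23, adjusted p = 0.0791), Pola1 (−0.66, SE 0.20, adjusted p = 0.103), Mcm2 (−0.56, SE 0.28), Prim1 (−0.51, SE 0.20) and Mcm3 (−0.48, SE 0.24). With each array centred on its median Gins1 was called lower at 8 h (−0.93, adjusted p = 0.0262). The smallest difference called at 8 h was 0.89 (1.85-fold).

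**Figure D2:**
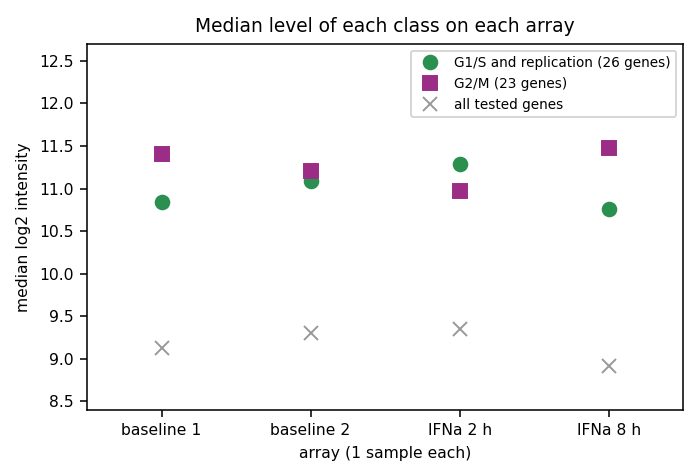
Median log2 intensity (vertical axis) of 26 replication genes, 23 mitosis genes and all tested genes on each of the 4 arrays. The replication median is highest at 2 h (11.29) and lowest at 8 h (10.76). The mitosis median is lowest at 2 h (10.97) and highest at 8 h (11.48). Its middle gene is Kif23 on baseline 1 and at 8 h, and Aurka on baseline 2 and at 2 h. Gene by gene, the mitosis median difference was −0.06 at 8 h against baseline and 0.11 for 8 h against 2 h. Heights of different symbols rest on different probes and are not compared.

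The third comparison sets the 8 h array against the 2 h array. Gins1 fell by 1.25 on the log2 scale (SE 0.27, adjusted p = 0.0273, limma), and Fen1 fell by 0.93 (SE 0.24, adjusted p = 0.0420). They were the members called, 2 of 49 lower and 0 higher, where 10.8% of all tested genes were called lower and 1.46% higher, so the members' share was not above the background. At an unadjusted p under 0.05, 9 members were lower, beside 27.4% of all genes, and Kif20a was higher, beside 9.01%. Without the filter on dim genes neither gene passed (adjusted p 0.0575 and 0.0840), and Fen1 also missed the threshold after quantile normalization (−0.61, adjusted p = 0.0612) and under the stricter filter (0.0506).

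From 2 h to 8 h the class medians shifted in opposite directions with the deposited values. The median difference from 2 h to 8 h was −0.47 for replication genes, 25 of 26 of them lower, and 0.11 for mitosis genes, 17 of 23 of them higher, beside −0.25 for all tested genes, of which 32.1% were higher. After quantile normalization the medians were −0.15 and 0.34, and with centred arrays −0.65 and −0.06, so the sign of the mitosis median turned. Set against the median of all tested genes, 7 of 26 replication genes and 21 of 23 mitosis genes lay above it. Quantile normalization gave 5 of 26 and 23 of 23.

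Mcm2 (−0.95, SE 0.32, adjusted p = 0.0755), Mcm3 (−0.93, SE 0.28, 0.0617), Prim1 (−0.78, SE 0.23, 0.0589) and Pola1 (−0.77, SE 0.23, 0.0610) stood next to the called genes. With centred arrays these 4 and E2f1 were called lower with Gins1 and Fen1, 7 in all, and Mcm2 also passed after quantile normalization (adjusted p = 0.0449). After quantile normalization 5 mitosis genes were called higher: Kif20a (0.84), Cenpf (0.82), Kif23 (0.80), Cenpe (0.79) and Nusap1 (0.72). Calls among all tested genes grew as well. Quantile normalization called 992 of them higher (156 as deposited), and centring called 2315 lower (1155 as deposited). Which single genes passed therefore depended on the scaling. Centring shifts all genes of an array alike, so it cannot change the distance between the classes. Quantile normalization can change it. The replication median minus the mitosis median was 0.54 at 2 h, −0.14 at 8 h and −0.58 for 8 h against 2 h with the deposited values, and 0.52, −0.14 and −0.49 after quantile normalization. Between the baseline arrays that distance was 0.13.

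**Figure D3:**
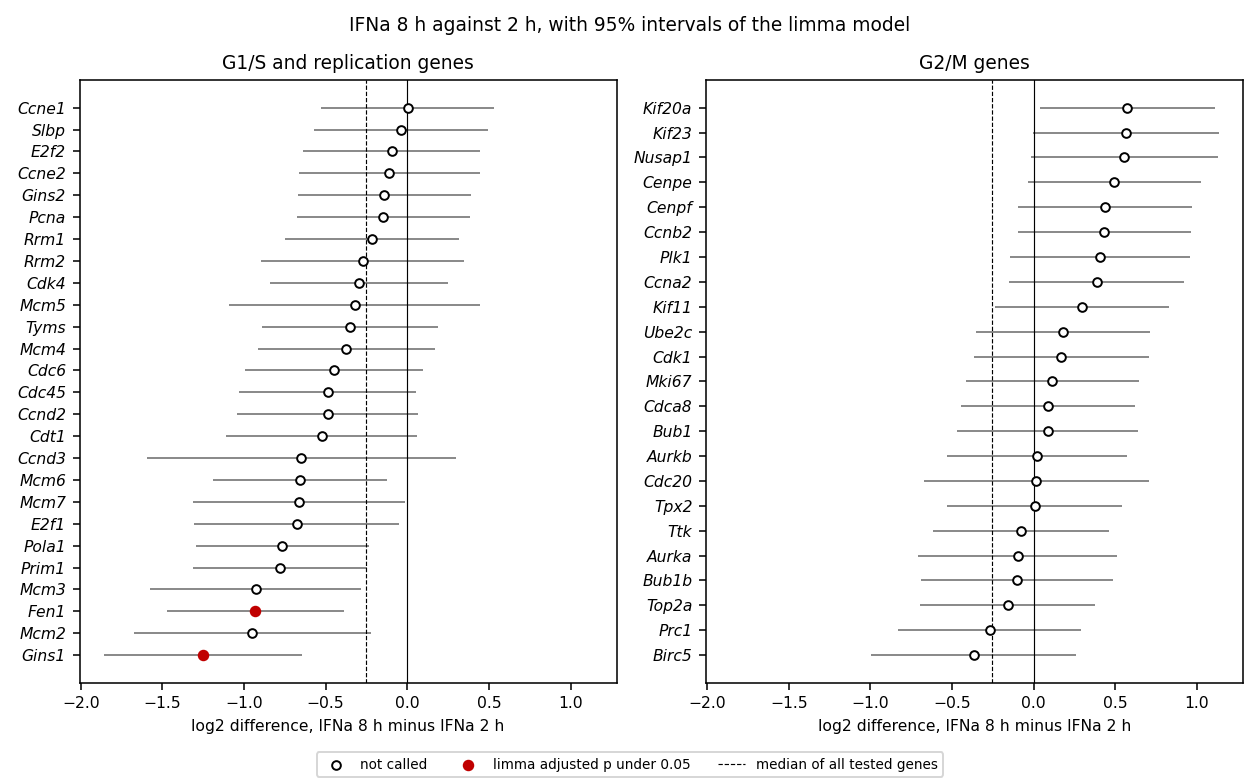
Log2 difference of the 8 h array from the 2 h array for each gene (horizontal axis, point) with the 95% interval of the limma model (line), replication genes on the left and mitosis genes on the right, each sorted by value. Filled points mark Gins1 and Fen1, the genes called, and the dashed line at −0.25 is the median of all tested genes, which 21 of 23 mitosis genes and 7 of 26 replication genes exceed.

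Further genes of the pathway, which are no members, were read for comparison. Of 35 other replication genes 33 were tested. At 2 h their median was 0.19, with 21 above both baseline arrays, where 44.5% of all tested genes were so. Limma called 0 of them at 2 h, and 3 were higher at an unadjusted p under 0.05, beside 9.36% of all genes. Rfc3, a subunit of the clamp loader, stood at 1.22 (SE 0.23, adjusted p = 0.0544), which passed under both other scalings, and Rpa2, of the single-strand binding complex, at 0.71. At 8 h all 33 were under the baseline mean, with a median of −0.36, and 31 lay below both baseline arrays. Of all tested genes 32.6% were above the baseline mean and 55.9% below both arrays, with a median of −0.16. After quantile normalization 29 of 33 were lower, with a median of −0.16. Orc1, the origin recognition subunit, read 8.43 and 8.69 at baseline, then 8.99 (2 h) and 7.33 (8 h), and it fell at 8 h (−1.23, SE 0.22, adjusted p = 0.0241; 0.0535 with no filter on dim genes).

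Between 2 h and 8 h, 7 of the 33 were called lower, where 10.8% of all tested genes were. They included Orc1 (−1.66, SE 0.25), Rfc3 (−1.49, SE 0.27), the dUTPase gene Dut (−1.22, SE 0.25) and Tipin (−1.10, SE 0.23), of the fork protection complex, with adjusted p from 0.0117 to 0.0275. With centred arrays 14 were called lower and with no filter 2. The calls among all tested genes moved too, to 2315 lower with centred arrays and 395 with no filter (1155 as deposited).

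Of 14 other G1 drivers and E2F factors 13 were tested, and their median was 0.09 at 2 h and −0.54 at 8 h (−0.03 and −0.30 after quantile normalization). At 2 h 0 were called (1 higher at an unadjusted p under 0.05, beside 9.36% of all genes), with E2f5 at 0.65 (SE 0.20) and Cdk6 at 0.44 (SE 0.22). Cdk6, the other kinase of the D-type cyclins, read 11.49 and 11.80 at baseline, then 12.09 (2 h) and 10.17 (8 h). It fell at 8 h (−1.47, SE 0.22, adjusted p = 0.0136), while Cdk4 stood at −0.23 (SE 0.21). Myc, a transcription factor of growth and division, read 11.88, 12.05, 11.94 and 10.77, and fell at 8 h (−1.20, SE 0.21, adjusted p = 0.0232; 0.0518 with no filter). Both were near or above baseline at 2 h and far under it at 8 h.

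Of these 13, 5 were called lower at 8 h than at 2 h, where 10.8% of all tested genes were. They were Cdk6 (−1.91, SE 0.25), E2f5 (−1.20, SE 0.23), Myc (−1.17, SE 0.24), the repressor E2f6 (−1.05, SE 0.23) and the phosphatase Cdc25a (−0.89, SE 0.23). The difference of Cdc25a was the smallest of the 5. With no filter on dim genes 2 of them were called lower, and with the stricter filter 3. Among all tested genes these filters called 395 and 815 lower (1155 as deposited).

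Of 17 brakes of the cycle 13 were tested, and Cdkn1a had no row of its own. Gadd45b, a stress-induced growth arrest gene, rose at 2 h (2.12, SE 0.24, adjusted p = 0.0043) and fell from 2 h to 8 h (−2.37, SE 0.27, adjusted p = 0.0079). It read 8.53 and 8.95 at baseline, then 10.87 (2 h) and 8.50 (8 h), high on the 2 h array alone. Gadd45g also fell between the times (−1.43, SE 0.38, adjusted p = 0.0455), though not under the other filters (0.0877 and 0.0583). At 2 h it stood at 1.06 (SE 0.33), which passed under both other scalings. Cdkn1b, the inhibitor p27, stood at −0.16 and 0.11, and the list median was −0.08 at 2 h and 0.02 at 8 h, with signs that turned with centred arrays. At 8 h 0 brakes were called (1 higher at an unadjusted p under 0.05, beside 5.63% of all genes), with Btg2 at 0.48 (SE 0.21) and Gadd45g at −0.37 (SE 0.33).

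All 45 other mitosis genes were tested. Their median was −0.04 at 2 h, which became 0.06 with centred arrays and −0.19 after quantile normalization. This separate list, which holds no members, was thus less low at 2 h than the mitosis members. Of its genes 25 of 45 stood under the baseline mean. Anln, a cytokinesis scaffold, stood at −0.57 (SE 0.21) and the cohesin regulator Cdca5 at 0.57 (SE 0.35). On this list 0 were called at 2 h (2 lower at an unadjusted p under 0.05, beside 2.78% of all genes). At 8 h the median was −0.08 (0.13 after quantile normalization), and Trip13, a checkpoint ATPase, fell (−1.19, SE 0.20, adjusted p = 0.0227; 0.0507 with no filter). Between the times Cdc25b, the phosphatase that activates Cdk1, rose by 1.19 (SE 0.24, adjusted p = 0.0241) and Trip13 fell by 1.04 (SE 0.24, adjusted p = 0.0316). With no filter neither passed (0.0521 and 0.0657), and Trip13 also missed the threshold after quantile normalization (0.0594). Cdc25b read 11.30 and 11.11 at baseline, then 10.72 (2 h) and 11.90 (8 h), lowest at 2 h and highest at 8 h.

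**Figure D4:**
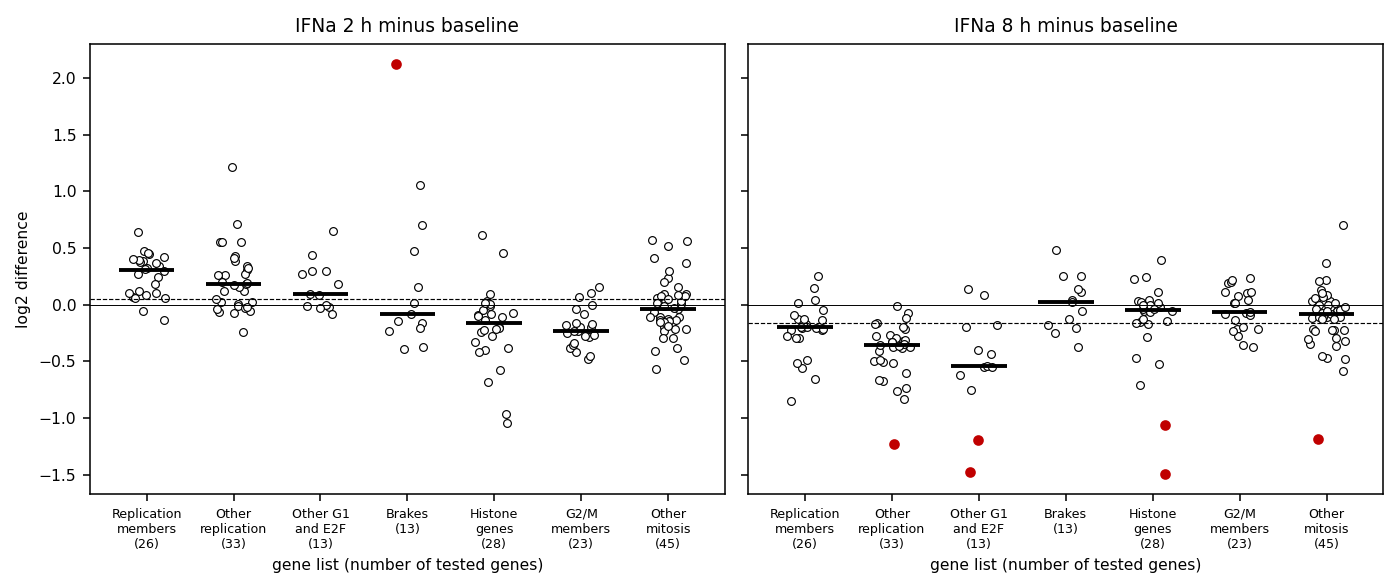
Log2 difference from baseline (vertical axis) of every tested gene in 7 lists at 2 h (left) and 8 h (right), with the list median as a bar, called genes as filled points and the median of all tested genes as a dashed line. Members called number 0 in both panels, the 33 other replication genes all lie under 0 at 8 h, and the bars of the brakes (both panels), of the other G1 genes and other mitosis genes (2 h) and of the mitosis lists (8 h) change sign with some scalings.

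Histone genes are made in step with replication, and their copies are near-identical, so rows can share signal. Of 31 rows with 1 histone symbol 28 were tested, some of them variants not tied to replication. Their median was −0.16 at 2 h, with 18 of 28 below both baseline arrays, where 33.0% of all tested genes were so. At 8 h it was −0.05, and 21 of 28 lay above the median of all tested genes (−0.16). The linker histone gene H1f2 read 11.36 and 11.31 at baseline, then 10.29 (2 h) and 10.27 (8 h), and H3c15 read 9.66, 9.62, 8.68 and 8.15. Both fell at 8 h (−1.06, SE 0.20, adjusted p = 0.0314, and −1.49, SE 0.20, adjusted p = 0.0087), and at 2 h they stood at −1.04 (adjusted p = 0.0582) and −0.96 (adjusted p = 0.0779). After quantile normalization both passed at 2 h, and with centred arrays H1f2 did. H1f2 missed the threshold at 8 h with no filter on dim genes (0.0691). Between the times 0 histone genes were called, with H2ac4 at −1.33 (SE 0.37) and H2bc1 at 0.56 (SE 0.24). At an unadjusted p under 0.05, 1 was higher and 1 lower, beside 9.01% and 27.4% of all tested genes. Quantile normalization called 2 higher and 1 lower, and centring and the intensity trend called 1 lower each. Of all 10699 tested genes, quantile normalization called 992 higher and 1316 lower. Centring called 2315 lower and the intensity trend 1241.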

How the data were processed

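RNA of 4 samples was hybridised to Affymetrix mouse gene arrays. The values deposited by the authors are intensities on a linear scale. The submitters' processing notes name RMA (background correction, normalization and probe summary) and Affymetrix Power Tools. Versions, and which arrays were normalized together, are not given in the sources used here. Log2 of the deposited intensity was taken with no pseudocount. Of 24922 rows, 21425 had 1 gene symbol in the platform annotation and were used. A gene with several rows took the row with the highest mean. Kept were 10699 genes that exceeded an array's median row on 1 or more arrays, and 9053 dimmer genes were put aside. Groups were fitted with limma 3.58.1 in R 4.3.3 (3 group means, empirical Bayes, two-sided, Benjamini-Hochberg over all genes kept, with calls where the adjusted p was under 0.05). Only the 2 baseline arrays gave a spread (1 residual and 7.46 prior degrees of freedom), and each lone IFNa array was assumed to vary like them. The number of arrays limits the precision. Intervals are 95% intervals of this model. The script was tested on simulated data.

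Members, classes and lists were chosen with earlier results of these data known, so lists are described by counts and medians with no test of their own. Older symbols were matched through RefSeq synonyms (GRCm38.p6). Of lists other than the members, up to 4 called genes with the largest difference are named per comparison, or 2 where none was called, plus Irf7, Myc, Cdkn1b and Cdkn1a. Cdc25a was named outside this rule. Histone rows were found through RefSeq synonyms after the files were read. As alternatives, arrays were quantile normalized or centred on their medians, the filter was dropped or set at the 60th percentile, and further fits used the mean of a gene's rows, an intensity trend in the prior, or 1 baseline array left out.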

Additional observations from a re-analysis of the deposited data

Results flagged for a closer look

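The 2 members whose difference between the IFNa times itself passed the test were Gins1, at −1.25 for 8 h minus 2 h (limma, adjusted p = 0.0273), and Fen1, at −0.93 (adjusted p = 0.0420). They are 2 of 49 members, where 10.8% of all tested genes were called lower, so the members' share was not above the background. Each rests on 1 array per time, and both comparisons with baseline fell short of the threshold (Gins1 0.40 at 2 h and −0.85 at 8 h, Fen1 0.64 and −0.29). Without the filter on dim genes neither passed between the times. Fen1 also missed the threshold after quantile normalization and under the stricter filter.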

How the results depend on the processing

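Calls of single genes moved with the scaling and the filter, and the cause was not tested. For all tested genes, quantile normalization gave 332 higher and 109 lower at 2 h (117 and 1 as deposited), 665 and 901 at 8 h (70 and 358), and 992 higher for 8 h against 2 h (156). Centring gave 291 and 7 at 2 h, 724 lower at 8 h, and 72 higher and 2315 lower (1155 as deposited) between the times. With no filter, where more genes are tested, 0 were lower at 2 h, 42 higher and 101 lower at 8 h, and 20 higher and 395 lower between the times. The stricter filter gave 203 lower at 8 h and 62 higher between the times, and the intensity trend 3 lower at 2 h. Of the members, centring called 1 lower at 8 h and 7 lower between the times, quantile normalization 5 higher between the times, and no filter 0, the stricter filter 1 and the intensity trend 3 lower between the times (2 as deposited). Between the times the median of the replication members became −0.15 after quantile normalization and −0.65 with centring, that of the mitosis members 0.34 and −0.0638, and their distance −0.49 after quantile normalization. Leaving out 1 baseline array at a time leaves no test. The distance between the class medians then ran from 0.40 to 0.58 at 2 h and from −0.25 to −0.10 at 8 h, the replication median from 0.19 to 0.37 and from −0.30 to −0.10, and the mitosis median from −0.22 to −0.21 and from −0.05 to 0.00. Differences of 9 of 49 members at 2 h, 11 at 8 h and 10 between the times changed sign after quantile normalization, none of them called as deposited. The mean of a gene's rows changed no member call. The groups compared share only the replicate number 1, which was not taken as a pairing. With 1 pair per comparison there would be no spread to test. Against baseline 1 alone, the 8 h median was −0.10 for replication members and −0.10 for all tested genes. Against baseline 2 alone these were −0.30 and −0.23.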
